A study of Homo sapiens with 2 samples.

Results

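The clustered replication-dependent histone genes were the 76 genes, of 55797 listed for both libraries, whose names in the deposited files begin with HIST1H, HIST2H, HIST3H or HIST4H. Of 89 rows with such a name, 13 were set aside because the name carries a pseudogene suffix. The 76 genes comprised 6 H1, 17 H2A, 24 H2B, 14 H3 and 15 H4 genes. By cluster, 55 belonged to HIST1 on chromosome 6, 16 to HIST2 and 4 to HIST3 on chromosome 1, and 1 to HIST4 on chromosome 12. In the reference annotation 67 were protein coding, 4 were pseudogenes that carry no suffix (HIST2H2BA, HIST2H2BC, HIST2H2BD and HIST3H2BA), and 5 were not matched.

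RNA-seq compared 1 live and 1 processed sample of H1-derived cells at Stage 6, the last stage of a stepwise pancreatic differentiation, to ask whether processing changes how transcripts are represented. H1 is an established human embryonic stem cell line, no genetic change is named for either sample, and the mixture contained insulin-expressing cells. Live cells were taken fresh, without fixation or sorting. Cells called processed went through fixation in 4% PFA, permeabilization, antibody staining and a sorter that kept every cell. Live RNA was isolated with an RNeasy kit and processed RNA with a modified RecoverAll kit after a long protease digestion, so that extraction and processing cannot be told apart, and both RNAs were poly-A purified before sequencing. All 10 pancreatic endocrine markers examined had an FPKM of at least 1 in both libraries, as had all 6 pluripotent markers, whose sum was 153 in live and 119 in processed cells, and the endocrine sum was 2395 and 2390. Summed stromal markers were 577 and 545, hepatocyte markers 2449 and 2715, and acinar markers 19.95 and 22.8. Of 5 macrophage markers, 3 were listed at 0 in processed cells, and their sum was 5.89 in live and 1.63 in processed cells.

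Replication-dependent histone genes supply the bulk of the histones that package new DNA, and their transcription rises as cells enter S phase. Histones H2A, H2B, H3 and H4 form the core of the nucleosome, and the linker histone H1 binds where DNA enters and leaves it. Most messages of these genes have no introns and end without a poly-A tail. Their 3′ end is instead a short hairpin, the histone stem-loop, which is bound by the stem-loop binding protein SLBP. Some of the genes can also give longer, polyadenylated messages from a site beyond the hairpin, mainly in differentiated cells. FPKM is a fragment count scaled for gene length and library size, so levels of different genes are given per length.

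The stem-loop was found in most of these genes and in few others. A hairpin with the letters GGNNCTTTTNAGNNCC and a fully paired stem was found within or near the listed span of 69 of the 76 genes, and of 62 of the 67 protein-coding ones. Among 64476 annotated genes, 70 (0.109%) held it in a transcript, and 62 of those were members of the clusters. The form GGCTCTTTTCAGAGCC was held by 44 members, 4 of them H1, 13 H2A, 16 H2B and 11 H3. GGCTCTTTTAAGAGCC was held by 10 members of these 4 types, and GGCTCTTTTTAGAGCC by 1 H2A gene. The H4 genes had forms of their own, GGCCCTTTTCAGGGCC in 10 and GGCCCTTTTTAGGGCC in 4. Sites of 1 or 2 genes per type are shown, those on which the values below turn. Capitals mark the hairpin, to which the coordinates (GRCh37) belong, and 5 bases are shown on each side.
HIST1H1C (chr6:26055972-26055987, minus strand): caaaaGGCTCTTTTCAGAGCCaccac
HIST3H2A (chr1:228645070-228645085, minus strand): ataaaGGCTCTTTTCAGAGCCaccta
HIST1H2BK (chr6:27114145-27114160, minus strand): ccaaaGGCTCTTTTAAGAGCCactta
HIST1H3C (chr6:26046077-26046092, plus strand): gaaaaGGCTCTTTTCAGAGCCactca
HIST1H4J (chr6:27792237-27792252, plus strand): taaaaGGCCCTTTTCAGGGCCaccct
HIST1H4K (chr6:27798956-27798971, minus strand): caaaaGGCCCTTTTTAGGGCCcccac

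Upstream of the genes, promoter windows of 300 bases from RefSeq (GRCh38.p14) were available for 65 members, in 69 windows. The octamer ATTTGCAT, searched on both strands, was in 27 of 69 windows (39.1%) against 1.77% of 35116 promoter windows of all genes. It was present in 15 of 20 H2B and 11 of 16 H2A windows, in 1 of 14 H3 windows, and in 0 of 6 H1 and 0 of 13 H4 windows. The letters CCAAT, on either strand, were in 59 of 69 windows (85.5%, against 34.6% of all), with 3 of 13 H4 windows the exception to their presence in every window of the other types. TATAAA was in 46 of 69 windows (66.7%, against 11.5% of all). The 250 bases upstream of the starts of HIST1H2BK and HIST1H4J, the members with the highest levels, are shown. They are followed by the stretch between the starts of HIST3H2A and its divergent neighbour HIST3H2BB. Capitals mark the octamer, CCAAT and TATAAA on either strand, and adjoining matches run together.
HIST1H2BK (chr6:27146859-27147108, minus strand): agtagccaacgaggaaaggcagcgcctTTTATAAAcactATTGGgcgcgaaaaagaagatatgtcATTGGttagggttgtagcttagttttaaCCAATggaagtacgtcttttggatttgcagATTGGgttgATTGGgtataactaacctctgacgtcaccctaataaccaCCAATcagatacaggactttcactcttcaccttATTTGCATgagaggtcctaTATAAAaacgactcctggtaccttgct
HIST1H4J (chr6:27823842-27824091, plus strand): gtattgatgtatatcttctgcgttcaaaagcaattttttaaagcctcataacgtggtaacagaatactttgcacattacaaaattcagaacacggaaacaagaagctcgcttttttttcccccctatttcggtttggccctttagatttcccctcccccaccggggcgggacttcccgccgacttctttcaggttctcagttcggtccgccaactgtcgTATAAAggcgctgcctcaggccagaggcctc
HIST3H2A to HIST3H2BB (chr1:228457874-228458102, minus strand): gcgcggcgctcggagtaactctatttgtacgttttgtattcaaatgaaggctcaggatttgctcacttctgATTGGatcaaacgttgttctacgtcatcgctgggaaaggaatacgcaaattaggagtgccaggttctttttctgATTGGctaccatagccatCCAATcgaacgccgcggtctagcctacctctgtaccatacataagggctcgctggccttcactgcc

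The histone genes had low FPKM in both libraries, which were made from poly-A purified RNA. In live cells 22 members had an FPKM of at least 1 and in processed cells 32 did, 16 of them in both. Only HIST1H2BK, HIST1H4J and HIST3H2A reached 10. Log2 ratios set processed over live FPKM after adding 1 to both, which makes the change of low genes look smaller. Of the 16 members at 1 or more in both libraries, 3 were more than 2-fold higher after processing and 2 were more than 2-fold lower. The shares among 14635 genes held to the same filter were 2.91% and 2.3%. The 3 were HIST2H2AC, HIST1H4K and HIST2H2BF, which share 19.6%, 90.9% and 10.4% of their stretches of 80 bases, the read length, with other members. HIST2H2AC also had a low-data status and overlapping bounds. The 2 were HIST3H2A and HIST1H2BD, whose bounds did not overlap. The median log2 ratio of the 16 members was 0.20, and that of all genes was −0.09. Without any filter the median of the 76 members was 0. Each condition has 1 library, so no difference has a replicate check and no test was made.

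A wider filter, an FPKM of at least 1 in either library, admitted 38 members and left out 38. It admitted 16 members through the processed library alone and 6 through the live library alone, and such genes had to differ in that direction. They were 57.9% of the 38 members but 15.5% of the 17326 genes admitted, so counts and medians under it are set in large part by the filter and are given as description. Under it 15 members were more than 2-fold higher, beside 6.57% of all genes, and 5 were more than 2-fold lower, beside 6.19%. Past 2-fold in either direction stood 52.6% of the members and 12.8% of all genes, and the members' median log2 ratio was 0.67. Of the 15, 5 were below an FPKM of 1e-06 in live cells and another 4 rested there on 1 to 3 fragments, as implied by the bounds. These 4 were HIST1H1B, HIST1H2BE, HIST1H3J and HIST2H2AC. Of the 5 lower members, 3 were listed at 0 in processed cells.

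Other short genes were past 2-fold more often than all genes. Among 262 protein-coding genes with transcripts under 1000 nt and a highest FPKM of 1 to 29, 16.4% were more than 2-fold higher and 10.3% were lower under the wider filter, which 33.2% of them passed in 1 library only. Among the 175 of these at 1 or more in both libraries, 6.86% were past 2-fold, against 31.3% of the 16 histone genes, which are 5 genes, and 5.21% of all genes. Pearson's r of log2(FPKM + 1) between the libraries was 0.605 over the 38 members, 0.768 over the short genes and 0.919 over the 17326 genes. These are correlations across genes within 1 pair of libraries, and genes are not independent replicates.

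**Figure D1:**
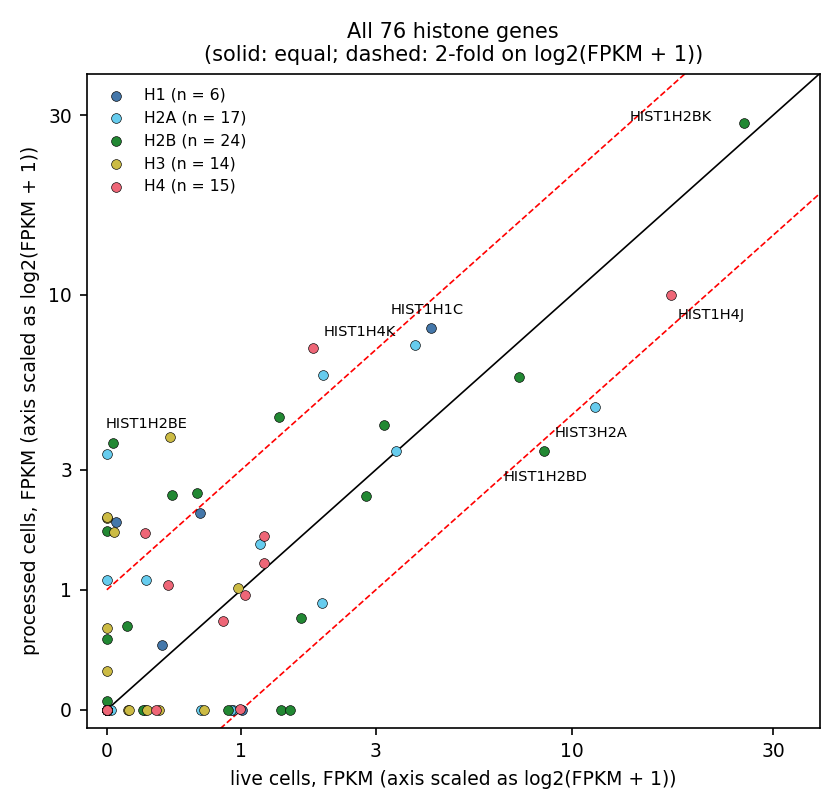
FPKM of each of the 76 histone genes in live cells (x axis) and processed cells (y axis), both scaled as log2(FPKM + 1), 1 library each, with color for the histone type. The solid line marks equal values and the dashed lines 2-fold. Points lie along both axes, where 17 members were above 0 in live cells only and 7 in processed cells only. With an FPKM below 1e-06 taken as 0, these were 16 and 9. HIST1H2BK lies near the solid line.

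For short genes that share little sequence, the authors' lower and upper bounds behaved as those of a fragment count plus and minus 2 of its square roots. There the count can be read back from them. Among genes that are short, above 0 and share little sequence with another member, all 20 counts in live and all 17 in processed cells came out whole within 0.05. Over all members above 0, 27 of 50 values in live and 22 of 43 in processed cells came out whole. For longer genes or genes with shared sequence, the fragments given are those the bounds imply and may not be counts. In either case the bounds come from 1 library each and hold no spread between samples. They did not overlap between libraries for 29 of the 38 members (76.3%, against 71.8% of all genes and 72.1% of the short genes). Of these members 21 were higher and 8 lower in processed cells, where 4867 of all genes were higher and 7570 lower. The wider filter set the direction of members it admitted through 1 library, so this split is description only. At 1 or more in both libraries, 9 of 16 members had bounds that did not overlap. The share of all genes under that filter was not computed, so this count is description only.

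**Figure D2:**
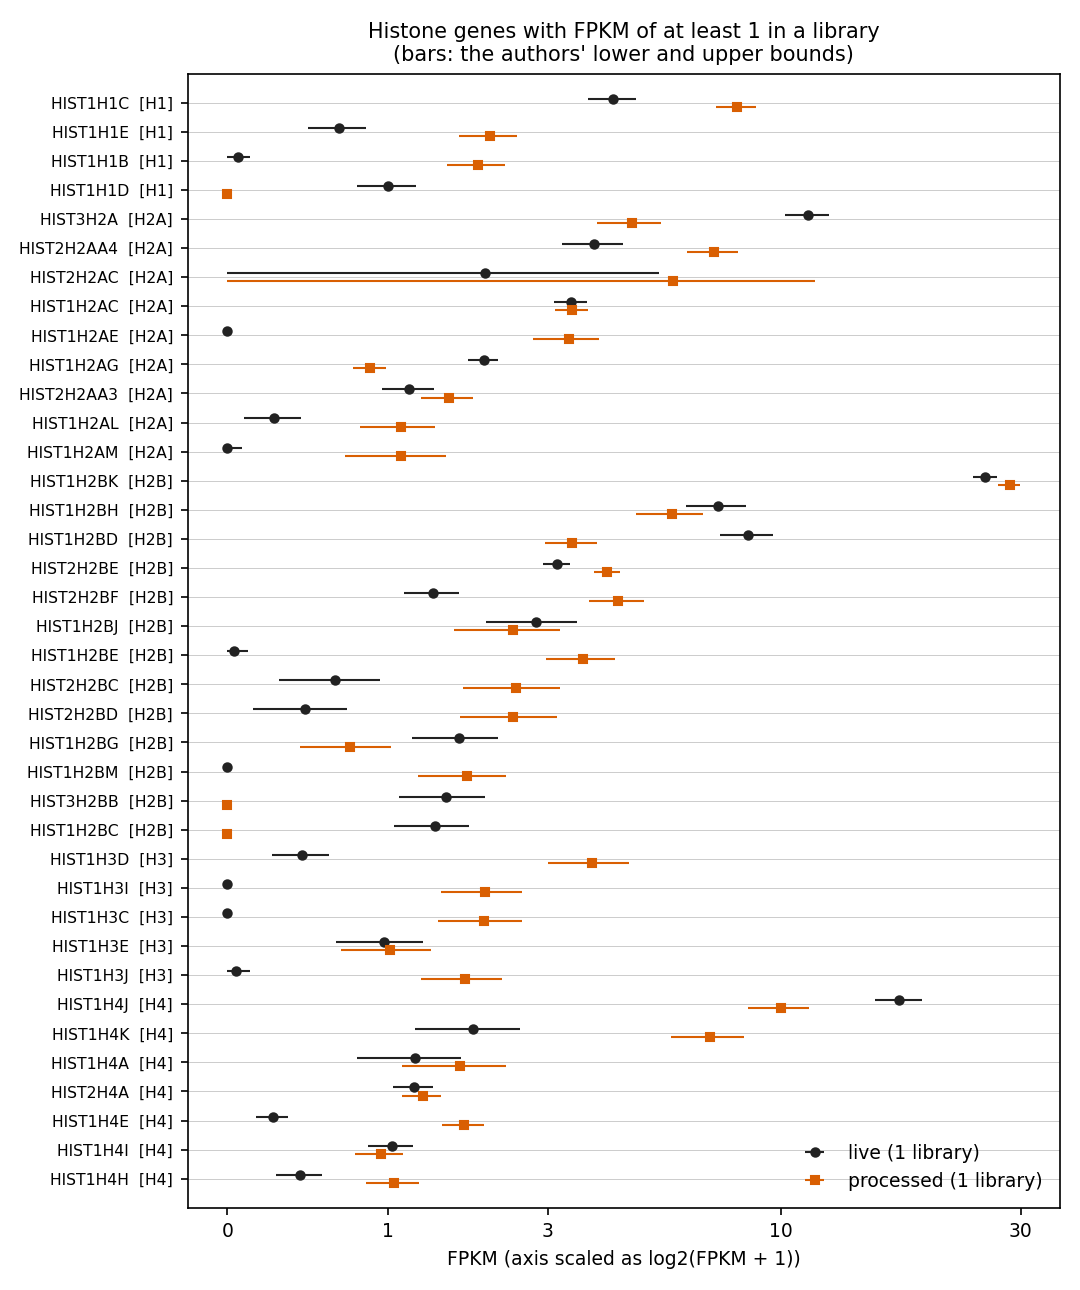
FPKM (x axis, scaled as log2(FPKM + 1)) of the 38 histone genes that reached 1 in a library, in live cells (black circles) and processed cells (orange squares), with the authors' bounds as bars. HIST1H2BK is highest at 25.6 and 28.5, and HIST2H2AC has the widest bars.

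Among the linker histones, 4 genes entered the comparison, of which HIST1H1C alone reached 1 in both libraries. HIST1H1C was the most abundant, at an FPKM of 4.32 (bounds 3.76 to 4.87, 242 fragments) in live cells and 8.06 (7.28 to 8.85, 422 fragments) in processed cells, a log2 ratio of 0.77. HIST1H1E was 0.619 in live and 2.11 in processed cells, from 38 and 121 fragments, which gave 0.94. In both genes the live value was the lower, and neither passed 2-fold by this measure. HIST1H1B rested on 3 fragments in live cells, at 0.0485, and on 113 in processed cells, at 1.96. Its FPKM was thus 40.4 times as high, with a 95% exact counting interval from 13.5 to 199. HIST1H1B passed the filter through the processed library alone, so its direction is no result. The interval holds counting error only and no spread between samples. HIST1H1D went the other way, at 1.01 (0.749 to 1.26, 61 fragments) in live cells and listed at 0 in processed cells. HIST1H1A stayed below 1 in both, at 0.328 and 0.457, and the testis linker histone gene HIST1H1T was listed at 0 in both. The summed FPKM of the 6 genes was 6.32 in live and 12.6 in processed cells, a log2 ratio of 0.99, and the ranges of these sums, 5.65 to 6.98 and 11.6 to 13.6, did not overlap.

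The H2A genes moved in both directions. HIST3H2A, the highest in live cells, was 11.4 (10.2 to 12.5, 368 fragments) in live cells and 4.75 (3.96 to 5.54, 145 fragments) in processed cells, a log2 ratio of −1.10. Its bounds in processed cells lay wholly below those in live cells. HIST1H2AE was listed at 0 in live cells and was 3.38 in processed cells, from 119 fragments. HIST2H2AA4 was 3.89 and 7.21, but its sequence is fully shared with HIST2H2AA3, at 1.20 and 1.61, and the sum of the pair was 5.09 in live and 8.81 in processed cells. HIST2H2AC was 2.05 and 5.89 with a low-data status and bounds that reached 0 and overlapped, and its listed position overlaps that of BOLA1. HIST1H2AC, which has a polyadenylation signal at its listed end, was nearly level at 3.43 and 3.45. Summed H2A FPKM was 26.9 (23.1 to 30.6) in live and 29.4 (23.3 to 35.4) in processed cells, a difference within the bounds.

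The H2B genes held the largest share of the histone signal, 47.6% in live and 43.9% in processed cells, and HIST1H2BK had the highest value of all members. It was 25.6 (24.2 to 27.0, 1377 implied fragments) in live cells and 28.5 (27.2 to 29.9, 1702 implied fragments) in processed cells, a log2 ratio of 0.15. Its listed span, chr6:27106073-27114619 in GRCh37, runs 8072 nt past the stem-loop and overlaps HIST1H4I, which lay at 1.04 and 0.940. Whether the libraries keep strand is not given in the sources used here, so reads of these 2 genes may be mixed. HIST1H2BD was 8.52 (7.43 to 9.61) in live and 3.45 (2.95 to 3.95) in processed cells, a log2 ratio of −1.10. In FPKM, HIST1H2BK and HIST1H2BD thus stood on opposite sides, the first within 2-fold and the other past it. The bounds of HIST1H2BD, whose listed span is 13229 nt, implied 245 fragments in live and 192 in processed cells. These lay closer together than its FPKM values, and the reason was not tested. HIST1H2BH was 7.36 (6.28 to 8.44) and 5.85 (4.86 to 6.83), a difference within the bounds. HIST1H2BE rested on 1 fragment in the live library (0.0308) and 112 in the processed one (3.66), a quotient of 119 with a counting interval from 20.9 to 4738. It passed the filter through the processed library alone, so its direction is no result, and the interval holds no spread between samples. HIST1H2BM was listed at 0 in live cells and was 1.82 in processed cells. HIST1H2BC and HIST3H2BB were the reverse, at 1.45 and 1.57 in live cells and listed at 0 in processed cells. In these 4 genes 1 library held nearly all of the signal. Of the 13 H2B genes compared, 7 passed the filter in 1 library only, and of the 6 that passed in both, 1 was more than 2-fold higher and 1 was lower. The H2B sum was nearly level, at 55.8 (52.5 to 59.1) and 61.2 (58.7 to 63.7).

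The H3 genes were low in both libraries. The highest live value was 0.966, so the 5 that entered the comparison did so through the processed library alone and had to be higher there, and their direction is no result. HIST1H3D was 0.382 (0.210 to 0.554, 19.8 implied fragments) in live cells and 3.84 (3.001 to 4.68, 83.7 implied fragments) in processed cells, a log2 ratio of 1.81. Its listed span contains that of the H2A gene HIST1H2AD on the same strand, so fragments of these genes may be mixed. HIST1H3C and HIST1H3I were listed at 0 in live cells and were 2.03 and 2.05 in processed cells, from 55 and 59 fragments. These 3 genes had their signal mainly or wholly in the processed library. HIST1H3J rested on 1 fragment in live cells and was 1.80 in processed cells, but it overlaps HIST1H2AM. HIST1H3E was level, at 0.966 and 1.02. Of the 9 H3 genes not compared, 5 were above 0 in live cells only. Summed H3 FPKM was 2.81 (2.23 to 3.38) in live and 11.6 (10.3 to 12.9) in processed cells, a log2 ratio of 2.05 and the largest of the 5 types.

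A near-identical pair carried most of the H4 signal. HIST1H4J was 17.3 (15.5 to 19.2) in live cells and 9.97 (8.53 to 11.4) in processed cells, a log2 ratio of −0.74, whereas HIST1H4K was 1.90 (1.25 to 2.54) and 7.09 (5.81 to 8.37), a ratio of 1.48. The genes share 84.7% and 90.9% of their 80-base stretches, the length of a read, so the split of fragments between them is uncertain. Their sum was 19.2 (17.3 to 21.2) in live and 17.1 (15.1 to 19.0) in processed cells, a difference within the bounds. HIST1H4A was 1.25 and 1.73, with overlapping bounds. HIST1H4E, which has the stem-loop and a listed end 1022 nt beyond it, was 0.218 and 1.78. Summed H4 FPKM was 25.4 (23.4 to 27.5) and 24.6 (22.5 to 26.6).

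**Figure D3:**
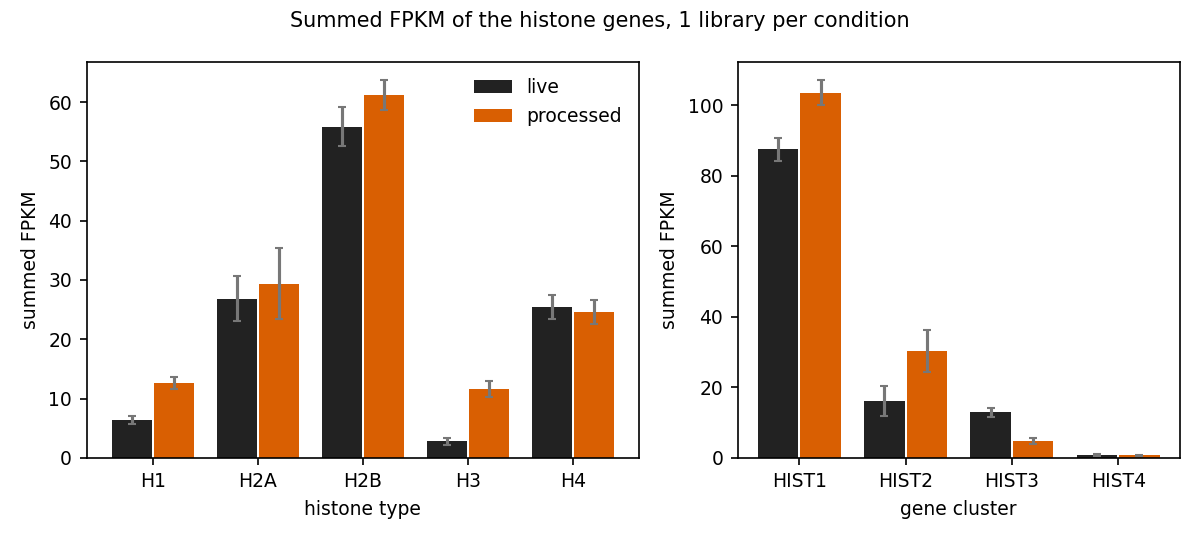
Summed FPKM (y axis) of the histone genes by type (left) and by cluster (right) in live (black) and processed (orange) cells, 1 library each, with bars for bounds combined in quadrature. H3 and H1 stand higher in processed cells and HIST3 lower, while H2A, H2B and H4 are close.

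By cluster, HIST1 summed to 87.4 in live and 104 in processed cells (log2 ratio 0.24) and HIST2 to 16.1 and 30.3 (0.92). HIST3 fell by 1.44 on the log2 scale, from 12.9 to 4.75. HIST3H2A, at 1 or more in both libraries, was lower in processed cells. HIST3H2BB passed the filter through the live library alone and had to be lower, so its direction is no result. HIST4H4 was 0.816 and 0.670. All 76 members summed to 117 (112 to 123) in live and 139 (132 to 146) in processed cells, a log2 ratio of 0.25.

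Many of the H2A and H2B genes lie head to head and share the stretch between their starts, and 14 such pairs were found with starts 128 to 347 nt apart. In 7 pairs both genes entered the comparison. Among these 7, bounds that did not overlap placed both genes on the same side in 2 pairs, HIST2H2BD with HIST2H2AA4 and HIST3H2A with HIST3H2BB, and on opposite sides in 1. In that pair, HIST1H2BG was 1.72 in live and 0.698 in processed cells while HIST1H2AE was listed at 0 and at 3.38. Each of these same-side and opposite-side pairs held a gene that passed the filter in 1 library only, HIST2H2BD, HIST3H2BB, HIST1H2BG or HIST1H2AE. The filter set the direction of those genes, so the sides are description only. HIST2H2BD, a pseudogene in the reference, and HIST2H2AA4 also share 99.3% and 100% of their 80-base stretches with other members. In 4 further pairs on opposite sides, 1 gene or both did not reach an FPKM of 1.

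Exact zeros were frequent. Of the 76 members, 17 were above 0 in live cells and listed at 0 in processed cells, where the share of all listed genes was 9.63%. Of these, 9 rested on at least 10 fragments and HIST1H1D on 61. Another 7 were listed at 0 in live cells and above 0 in processed cells, where the share of all genes was 1.76%, and 16 were listed at 0 in both, against 45.2%. With an FPKM below 1e-06 taken as 0, the members above 0 were 16 in live cells only and 9 in processed cells only. The shares of all genes at that line were not computed. An exact 0 can be a failed estimate, and the cause was not tested. In a mixture of cells, fewer cells of a type and less RNA per cell cannot be told apart either.

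The histone genes were also grouped by the position of the listed 3′ end. In 50 members the listed end lay no more than 100 nt past the stem-loop, in 19 it lay further downstream, and for 7 no stem-loop was found. The letters AATAAA or ATTAAA stood in the last 50 nt of the listed span of 15 of the 76 members, against 71.8% of 3916 protein-coding genes on the same chromosomes. Summed over all members of a group, FPKM was 60.0 (55.0 to 65.1) in live and 77.4 (70.8 to 84.1) in processed cells for genes that end at the stem-loop, and 52.6 (50.5 to 54.7) and 55.1 (53.1 to 57.0) for genes that extend beyond it. The median log2 ratio of the compared members was 1.01 for the first group and 0.10 for the other, but the filter acted on them unequally, since 14 of 22 genes in the first group and 4 of 12 in the other passed it in 1 library only. Among the 8 members of each group at 1 or more in both libraries, the medians were 0.51 and 0.10. The difference between the groups was not tested.

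**Figure D4:**
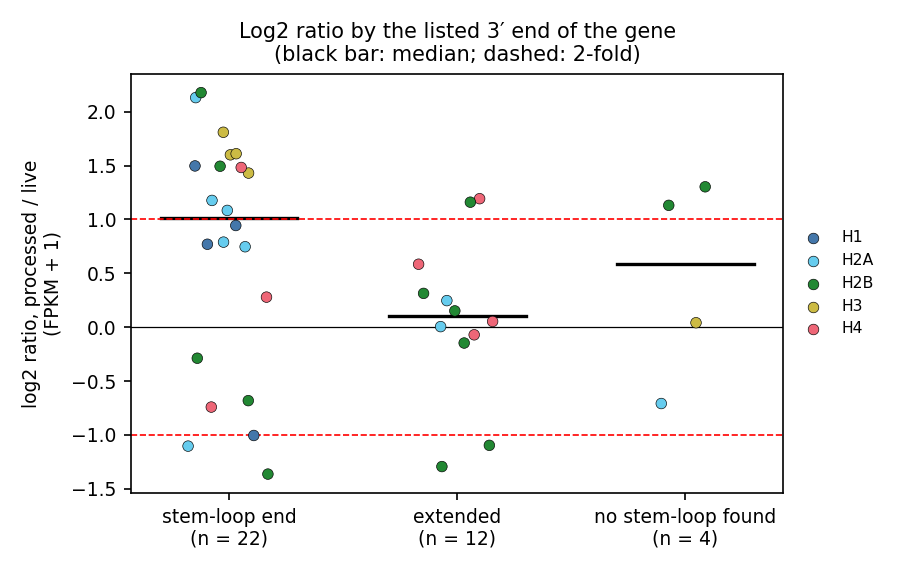
Log2 ratio of processed to live FPKM + 1 (y axis) of the 38 compared histone genes by where the listed gene ends (x axis), colored by type, with medians as black bars and 2-fold as dashed lines. The median is 1.01 for genes that end at the stem-loop and 0.10 for genes that extend past it, but 14 of the 22 and 4 of the 12 genes passed the filter in 1 library only, and both groups hold genes on either side of 0.

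Histone variants and the factors that serve histone messages mostly had FPKM well above that of the clustered genes. Both RNAs were poly-A purified, and most clustered histone messages end without a poly-A tail. These values therefore cannot rank the expression of clustered genes against that of genes with polyadenylated messages. The replacement histone genes H3F3A (786 in live, 805 in processed cells), H3F3B (557 and 545) and H2AFZ (262 and 238) lie outside the clusters and were far above any clustered gene. The 12 variant genes compared summed to 2335 and 2283, and 0 of 12 were past 2-fold. Of the 17 genes for the transcription, 3′ processing and decay of histone messages, 0 were past 2-fold, with SRRT at 90.8 and 97.3, NCBP2 at 42.6 and 42.8, and SLBP at 39.7 and 35.8. An FPKM of 10 was reached by 11 of the 12 variant genes, 12 of the 17 message genes and 15 of the chaperone genes described next, and among all genes at that level 5.02% were past 2-fold, so counts of 0 lie near that share. Of 16 histone chaperone genes, 0 were past 2-fold, with NAP1L1 at 686 and 541, NASP at 154 and 130, and RBBP4 at 116 and 91.8. The median log2 ratios of these 3 lists were −0.05, −0.12 and −0.14. In plain FPKM, without the added 1, 1 gene of each list was lower by more than 2-fold. These were the centromeric H3 variant gene CENPA at 15.7 and 7.49, CASP8AP2 at 7.996 and 3.62, and the chaperone gene ATRX at 22.8 and 10.9. The share of all genes past 2-fold in plain FPKM was not computed, so these genes are given as description only.

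Genes of DNA replication and of mitosis were likewise within 2-fold. An FPKM of 10 was reached by 24 of 29 S phase genes and by 14 of 14 mitosis genes. Among all genes at that level 5.02% were past 2-fold, so counts of 0 lie near that share. Of 29 S phase genes, 25 had lower values after processing, as had 58.3% of all 17326 genes, and 0 were past 2-fold, and the median log2 ratio was −0.20. The replicative helicase gene MCM7 was 108 and 102, the sliding clamp gene PCNA was 91.0 and 79.1, and the thymidylate synthase gene TYMS was 65.8 and 70.1. Of 14 genes of G2 and mitosis, 7 were higher and 7 were lower, with CCNB1 at 63.1 and 89.1, TOP2A at 48.2 and 57.2, and AURKB at 31.2 and 48.4. Over the 14635 genes at 1 or more in both, processed FPKM was 0.932 of live FPKM at the median, and dividing by it raises the median log2 ratio by 0.10. Relative to that median the variant histones changed side, from −0.05 to 0.05, as did the mitosis genes, from −0.04 to 0.06.

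Other RNAs that are made without a standard poly-A tail stood higher in processed cells in most cases. Of 7 compared, out of 10 rows listed, 5 were more than 2-fold higher and 1 was lower, beside 6.57% and 6.19% of all genes. The median log2 ratio of the 7 was 1.19. RN7SK, a regulator of transcription elongation, was 8.64 in live and 98.6 in processed cells. RMRP, the RNA of RNase MRP, was 4.21 and 41.6, and RPPH1, the RNA of RNase P, was 5.35 and 29.1. The bounds of RPPH1 implied 3.42 and 18.5 fragments, reached 0 and overlapped, and the other listed row of RPPH1 was close to 0 in both libraries. The nuclear RNA MALAT1 was 40.6 and 94.2, and the Cajal body RNA SCARNA2 was 2.02 and 5.24. The signal recognition particle RNA RN7SL2 was 172 and 285, within 2-fold, while its near copy RN7SL1 was 6.60 in live cells and close to 0 in processed cells. The list summed to 240 and 553. Whether the shifts of these RNAs and of the histone genes have a common source was not tested.

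**Figure D5:**
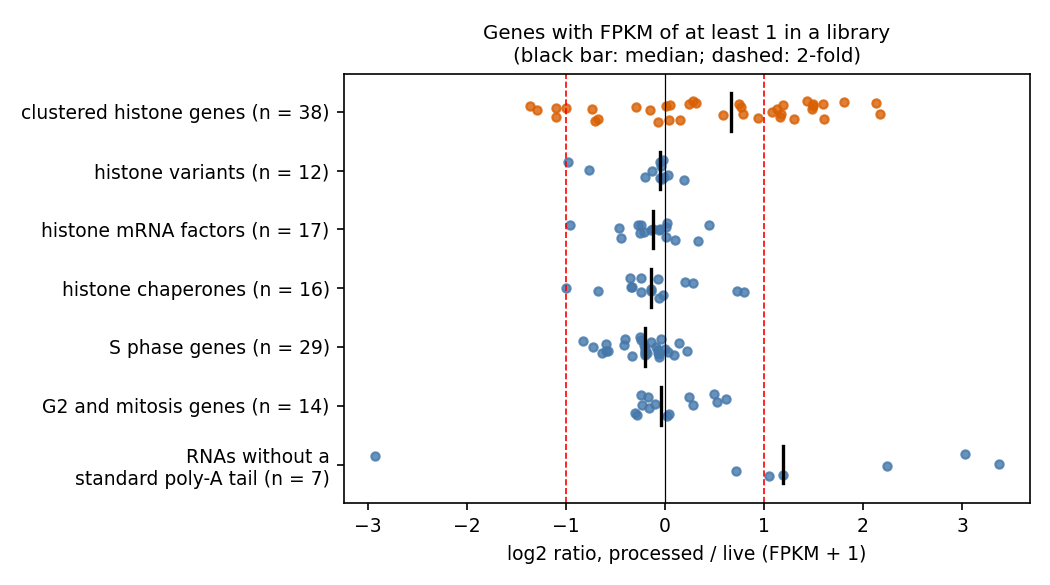
Log2 ratio of processed to live FPKM + 1 (x axis) for the clustered histone genes (orange) and 6 other gene lists (blue), 1 point per gene with an FPKM of at least 1 in a library, with medians as black bars and 2-fold as dashed lines. Histone genes and RNAs without a standard poly-A tail extend past 2-fold on both sides, and the other 5 lists stay within it.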

How the data were processed

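RNA-seq measured 1 live and 1 processed sample of H1-derived Stage 6 cells. The authors aligned paired 80 nt reads to GRCh37/hg19 with STAR 2.2.0c, guided by GENCODE release 14, and deposited an FPKM value per gene from Cufflinks 2.0.2 (Cuffdiff in the paper's methods), with lower and upper bounds and a status. The labels give 1 sample per lane and the paper's methods 2. Strandedness and the number of fragments behind the normalization are not given in the sources used here.

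Values were joined by Ensembl identifier with Python 3.11.15, pandas 2.3.3 and numpy 2.4.6. Intervals for low fragment counts came from scipy 1.17.1, and figures from matplotlib 3.10.9. A pseudocount of 1 was used, the main filter was an FPKM of at least 1 in either library, with counts at 1 or more in both given first in the report since the main filter admits genes by the library in which they are high, and more than 2-fold was the line for a call. Fragments were read from the bounds as (2 × FPKM / half-width) squared, which is an implied value for long genes and genes with shared sequence. FPKM of near-identical copies was set beside their sum. Sequence came from GRCh37 with GENCODE release 44, in which 40 members matched by identifier and 31 by RefSeq name and position, and promoters came from RefSeq. Motifs were searched on both strands. The stem-loop was searched on the gene's strand within 150 nt of its listed span.

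Named genes were members with an FPKM of at least 10, the 3 highest in each type, the 5 largest rises and falls with status OK, members at 0 in one library and at least 1 in the other, and members whose sequence is printed with their divergent neighbours. From the other lists they were the 3 highest and any past 2-fold. Further members (HIST1H1A, HIST1H1T, HIST2H2AA3, HIST1H2AC, HIST1H2AD, HIST1H2AM, HIST1H2BG, HIST2H2BD, HIST2H2BF, HIST1H3E, HIST1H3J, HIST1H4E, HIST1H4I and HIST4H4) were named after their values were seen. The members and the lists were chosen with earlier results of these data known. The calculations were tested on simulated data. Alternatives covered the pseudocount, the filter, scaling, gene type, status, copies and overlaps. No test was possible with 1 sample per condition. Protein sequences and read coverage were not analysed here.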

Additional observations from a re-analysis of the deposited data

Results flagged for a closer look

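Among the 13 rows set aside by their pseudogene suffix, HIST2H3PS2 was the one whose bounds lay wholly above those in live cells, at an FPKM of 0.492 (0.365 to 0.619) in processed cells and 0.194 (0.112 to 0.276) in live cells. It is given here since it lies outside the 76 genes. HIST1H2APS1 was 1.13 in live cells and listed at 0 in processed cells.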

How the results depend on the processing

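No paired analysis was possible because each condition has 1 sample. Of the values recomputed for the histone genes and lists, 183 stayed close to the value given, 30 moved, and 5 changed sign. In those 5 the value given and the move were each larger than the counting error, but the new value can lie within that error of 0. Counting every change of sign, however small, 14 of 218 values lay on the other side of 0, of which 5 were H2A sums and 3 were H4 sums. Without a filter, bounds were separate for 46 members and the median log2 ratio was 0. With an FPKM of at least 0.1, they were 45 and 0.13. With at least 1 in both libraries, 3 members were higher, 2 were lower and 9 had separate bounds, the median was 0.20, and the summed log2 ratio was 0.0457 for all members, 0.000155 for H2B and −0.0391 for HIST1, while the RNAs without a standard poly-A tail had a median of 1.72. With at least 10, 0 members were higher, 1 was lower and 3 had separate bounds, the median was −0.74, and the sums gave −0.33 for all members, −1.26 for H2A, −0.80 for H4 and −0.16 for HIST1, and the RNA list gave 2.24. These filters leave fewer genes. Scaling by the median ratio gave 0.35 for the sum, 0.34 for HIST1, 0.0542 for variants, −0.0217 for message factors, −0.0452 for chaperones, −0.10 for S phase and 0.0580 for mitosis genes. Pseudocounts of 0.1 and 0.01 gave 18 higher and 7 lower members, and HIST1H1E passed 2-fold at 1.62 and 1.76, and at 1.01 after scaling by the median ratio. Alternatives chosen after seeing the data left out members sharing over 10% of their 80-base stretches, which gave −0.34 for H2A, 0.00935 for H2B, 0.63 for H4, 0.37 for HIST1 and 0.40 for HIST2, or kept members above 0 in both libraries, which gave 2 lower members and 1.25 for H1. The cause of each move was not tested. Depth limits the low genes most: over members above 0, the bounds implied a median of 28.6 fragments in live and 86.6 in processed cells.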
